A study of Homo sapiens with 5 samples.

Results

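The 26 genes described here encode enzymes, regulators and a transfer protein of cholesterol and fatty acid synthesis. They are listed by their function in these pathways and are 26 of the 32732 human genes listed for every sample. Sterol regulatory element-binding proteins (SREBPs), encoded by SREBF1 and SREBF2, are transcription factors held in the endoplasmic reticulum when sterols are plentiful and released to enter the nucleus when sterols are scarce. INSIG1 retains them there, and most of the synthesis enzymes are known SREBP targets. The brain makes its own cholesterol because lipoproteins do not cross the blood-brain barrier, and in the mature brain astrocytes are known to make much of it and to pass it to neurons on apolipoprotein E.

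Single cells were captured in droplets from human brain organoids derived from H9, an established human embryonic stem cell line, and were sequenced with 1 library for each of 5 conditions. D0 held organoids at day 42 in vitro, the day of transplantation. HIP_2MPT and HIP_4MPT held organoids grafted into the hippocampus of immunodeficient SCID-Beige mice and taken 2 or 4 months post transplantation (MPT), and PFC_2MPT and PFC_4MPT held organoids grafted into the prefrontal cortex. The labels give the line as H9 with genotype WT, while the study's methods name the H9 derivative AAVS-ChR2-EYFP, which carries a light-gated channel and a yellow fluorescent protein. All samples share that line, each library pools several organoids or host brains, and the host mice lack T and B lymphocytes.

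After filtering, 34390 human cells remained, 4885 to 8363 per library, with 11192237 to 55892222 unique molecular identifiers (UMIs, random tags by which copies of 1 RNA molecule are counted once). D0 was the deepest library, with a median of 9847 UMIs per cell against 1253 to 2759 in grafts. Libraries shared under 0.3% of their cell barcodes, and PFC_4MPT stood apart by a median mitochondrial share of 7.31% against 2.35% to 3.77% in the other libraries. Levels are given in CPM, a gene's UMIs summed over the cells of a library as a share of all UMIs of the shared genes, on which scale the 3802 CPM of all 26 genes in D0 are 0.380% of its UMIs. Because the 2 libraries of a stage differ in graft site and mice, p-values measure the spread between libraries, which may be technical.

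Clusters were called progenitor-like, neuron-like or astrocyte-like from marker genes, with the 26 genes and 37 related genes kept out of the clustering. Progenitor-like clusters were those named cycling or radial glia. Neuron-like clusters were those named neuron or intermediate progenitor neuron, so results for this class are not for neurons alone. The 10 astrocyte markers, which include GFAP, AQP4 and SPARCL1, summed to 1413 to 7342 CPM in astrocyte-like cells of grafts and to 145 to 223 CPM in neuron-like cells of grafts. The 12 neuron markers, which include STMN2 and NEUROD6, summed to 3902 to 7684 CPM in neuron-like cells and to 531 to 1994 CPM in astrocyte-like cells. D0 held 98 astrocyte-like cells, and these few cells were given by value and kept out of the tests. Their astrocyte markers reached only 588 CPM and those of radial glia 8768 CPM. Radial glia markers were also high in astrocyte-like cells of grafts, at 4574 and 7589 CPM at 2MPT and 5512 and 4760 CPM at 4MPT in HIP and PFC. At 2MPT they were above the astrocyte markers, at 1413 and 2329 CPM, and at 4MPT below them, at 7342 and 5380 CPM. Metallothionein genes led the main astrocyte-like cluster.

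Promoter stretches are shown for SREBF2, whose window holds the sterol regulatory element letters, and for the genes whose change with time differed between cell classes, as far as RefSeq windows were at hand. The bases just before the first base of each gene in GENCODE 44 are given 5′ to 3′ on the strand of the gene, from RefSeq windows of build GRCh38.p14. Capitals mark CCAAT, or ATTGG where it lies on the opposite strand, and in SREBF2 also TCACCCCAC, a match to the core of the sterol regulatory element. The stretches of SC5D and SCD hold no such letters and so no capitals, although both genes have CCAAT elsewhere in their RefSeq windows. The stretches lie at chr22:41832955-41833104 (plus strand) for SREBF2, chr7:155297628-155297775 (plus) for INSIG1, chr5:43313513-43313662 (minus) for HMGCS1, chr4:165327517-165327666 (plus) for MSMO1, chr11:121292531-121292680 (plus) for SC5D, chr5:111512591-111512740 (minus) for STARD4 and chr10:100347083-100347232 (plus) for SCD.
SREBF2: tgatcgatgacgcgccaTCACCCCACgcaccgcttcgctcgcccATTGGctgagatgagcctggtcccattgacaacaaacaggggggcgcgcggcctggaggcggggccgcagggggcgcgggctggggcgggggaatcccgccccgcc
INSIG1: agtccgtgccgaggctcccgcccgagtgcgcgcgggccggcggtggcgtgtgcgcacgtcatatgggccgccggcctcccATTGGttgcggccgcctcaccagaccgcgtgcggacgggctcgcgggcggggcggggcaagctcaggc
HMGCS1: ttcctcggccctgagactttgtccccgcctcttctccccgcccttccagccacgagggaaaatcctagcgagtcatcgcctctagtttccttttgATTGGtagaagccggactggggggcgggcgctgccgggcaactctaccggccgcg
MSMO1: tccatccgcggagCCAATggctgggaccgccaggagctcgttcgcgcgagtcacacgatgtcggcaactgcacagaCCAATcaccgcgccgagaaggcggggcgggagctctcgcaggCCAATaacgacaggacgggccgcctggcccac
SC5D: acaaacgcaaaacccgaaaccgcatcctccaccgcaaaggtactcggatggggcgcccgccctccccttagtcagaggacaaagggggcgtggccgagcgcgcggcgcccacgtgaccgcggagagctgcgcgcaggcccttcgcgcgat
STARD4: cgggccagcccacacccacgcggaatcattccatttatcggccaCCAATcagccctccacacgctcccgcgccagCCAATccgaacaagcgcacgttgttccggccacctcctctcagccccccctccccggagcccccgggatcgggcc
SCD: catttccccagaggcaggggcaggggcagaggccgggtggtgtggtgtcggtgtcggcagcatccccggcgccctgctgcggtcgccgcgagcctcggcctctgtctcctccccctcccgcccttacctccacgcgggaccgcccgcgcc

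RefSeq windows were at hand for 22 of the 26 genes, the others being FDFT1, SQLE, ACAT2 and FASN. Within 250 bases before a start, on either strand, CCAAT was found for 18 of the 22 genes, against 37.0% of 27305 genes with windows. Genes with more windows have more chances of a match, and among those with a single window CCAAT was found for 12 of 16 of the synthesis genes and for 33.4% of 22114 genes. The letters TCACNCCAC were found only for SREBF2, 133 bases before its start, and for 1.09% of all genes. CACGTG, the palindromic E-box, was found for INSIG1 and SC5D, and for 7.73% of all genes. A match describes the letters only.

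To ask how the synthesis genes differed after transplantation, the grafts were compared with D0, which is also younger, over all human cells. The 26 genes summed to 3802 CPM in D0, 1506 CPM in HIP_2MPT, 1704 CPM in PFC_2MPT, 1245 CPM in HIP_4MPT and 1197 CPM in PFC_4MPT. D0 was thus 2.69-fold above the graft mean of 1413 ± 237 CPM (SD, n = 4), and above every graft. Of the 26 genes, 22 were lower in grafts and 2 were higher by edgeR's quasi-likelihood test (adjusted p under 0.05), while 24.1% of all genes tested were lower and 29.2% higher. The median log2(Fold change) was -1.53 over the 26 genes and 0.06 over all genes. D0 is a single library, assumed in this test to vary like the grafts. In such sums of all cells, fewer cells of a type and less RNA per cell cannot be told apart.

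**Figure D1:**
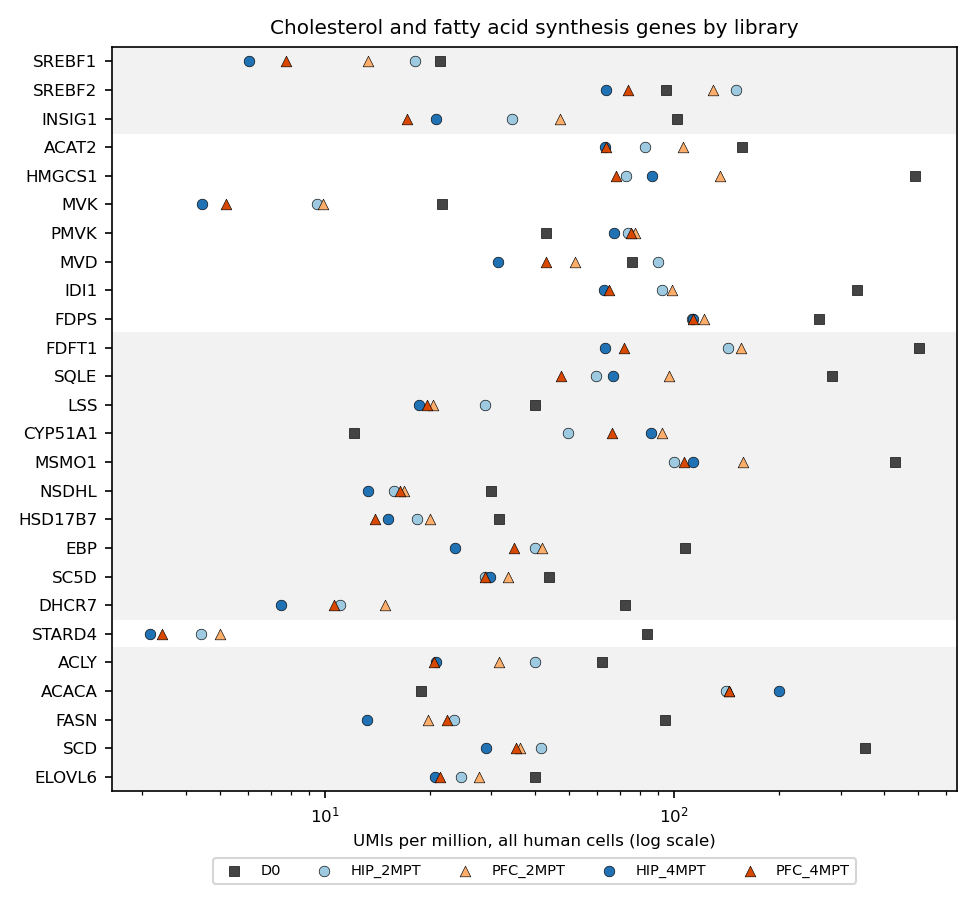
Level of each of the 26 genes in all human cells of the 5 libraries, in CPM on a log scale, with genes grouped by role in shaded bands. D0 (squares) lies to the right of every graft for most genes, at 491 CPM against 68.0 to 135 CPM for HMGCS1, and to the left for CYP51A1, ACACA and PMVK.

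Among the regulators, INSIG1 stood at 102 CPM in D0, 34.3 CPM in HIP_2MPT, 47.0 CPM in PFC_2MPT, 20.8 CPM in HIP_4MPT and 17.2 CPM in PFC_4MPT. All grafts were below D0, and both 4MPT libraries were below both 2MPT libraries. Against D0 the log2(Fold change) was -2.22 ± 0.24 (SE; adjusted p = 4.0e-05, edgeR). SREBF1, the SREBP known mainly for fatty acid genes, stood at 21.4 CPM in D0, 18.2 and 13.3 CPM at 2MPT and 6.04 and 7.74 CPM at 4MPT in HIP and PFC. Its log2(Fold change) was -1.38 ± 0.29 (adjusted p = 0.0026, edgeR). SREBF2, the SREBP known mainly for sterol genes, followed another order. It stood at 94.9 CPM in D0, above that at 150.1 CPM in HIP_2MPT and 130 CPM in PFC_2MPT, and below it at 63.9 CPM in HIP_4MPT and 73.7 CPM in PFC_4MPT. Its mean over grafts did not pass the test against D0 (-0.30 ± 0.25, adjusted p = 0.33, edgeR).

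In the mevalonate and isoprenoid steps, which build the carbon units of sterols, 6 of 7 genes were lower in grafts. HMGCS1, which condenses acetyl groups early in the path, stood at 491 CPM in D0, 73.0 and 135 CPM at 2MPT and 86.2 and 68.0 CPM at 4MPT in HIP and PFC. Grafts lay far below D0, while the stages overlapped. Its log2(Fold change) was -2.80 ± 0.29 (adjusted p = 3.3e-05, edgeR). IDI1, an isomerase of the isoprenoid unit, fell by 2.44 ± 0.21 on the log2 scale (adjusted p = 1.3e-05, edgeR). ACAT2, MVK, MVD and FDPS were lower by 0.91 to 2.01 on that scale, although MVD stood higher in HIP_2MPT (89.7 CPM) than in D0 (76.0 CPM). PMVK, which adds the phosphate after MVK, was the exception, at 43.0 CPM in D0 and 67.3 to 77.4 CPM in grafts (0.43 ± 0.25, adjusted p = 0.17, edgeR).

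From squalene to cholesterol, 9 of 10 genes were lower in grafts. FDFT1, the squalene synthase at the entry to sterols, stood at 502 CPM in D0, 143 and 155 CPM at 2MPT and 63.5 and 72.0 CPM at 4MPT in HIP and PFC. Its libraries fell into 3 levels by stage without overlap, and it fell by 2.66 ± 0.22 on the log2 scale against D0 (adjusted p = 9.6e-06, edgeR). DHCR7, a reductase of the last steps, stood at 72.2 CPM in D0 and 7.46 to 14.8 CPM in grafts, a log2(Fold change) of -3.08 ± 0.26 (adjusted p = 1.1e-05, edgeR). MSMO1, which oxidizes methyl groups of the sterol ring, stood at 428 CPM in D0 and 100.2 to 158 CPM in grafts (-2.19 ± 0.26, adjusted p = 7.4e-05, edgeR). SQLE, LSS, NSDHL, HSD17B7, EBP and SC5D were lower by 0.88 to 2.43 on the log2 scale. CYP51A1, the lanosterol demethylase, went the other way, from 12.1 CPM in D0 to 49.8 to 92.1 CPM in grafts (2.26 ± 0.39, adjusted p = 0.00078, edgeR).

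STARD4, a soluble sterol transfer protein and itself a known SREBP target, showed the largest decrease of the 26 in all human cells. It stood at 83.7 CPM in D0, 4.43 and 5.01 CPM at 2MPT and 3.16 and 3.42 CPM at 4MPT in HIP and PFC, from 49 to 75 UMIs per graft library. D0 was 16.7 times the highest graft, and the log2(Fold change) was -4.75 ± 0.23 (adjusted p = 8.6e-07, edgeR).

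Of the fatty acid enzymes, ACLY, FASN, SCD and ELOVL6 were lower in grafts and ACACA was higher. SCD, which introduces the double bond of oleate, stood at 352 CPM in D0 and 28.9 to 41.7 CPM in grafts, a log2(Fold change) of -3.66 ± 0.22 (adjusted p = 2.4e-06, edgeR). FASN, the fatty acid synthase, stood at 94.1 CPM in D0 and 13.2 to 23.4 CPM in grafts (-2.61 ± 0.28, adjusted p = 3.8e-05, edgeR). ACACA, which makes malonyl-CoA for FASN, stood at 18.9 CPM in D0, 141 and 144 CPM at 2MPT and 200.4 and 144 CPM at 4MPT in HIP and PFC. It was thus higher in every graft than in D0 (2.70 ± 0.31, adjusted p = 6.2e-05, edgeR), against the direction of the other enzymes of its path.

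The decrease was also found within cell classes. In progenitor-like cells the 26 genes summed to 3417 CPM in D0 and 1112 to 2023 CPM in grafts, with 20 genes lower and 2 higher where 18.9% and 23.2% of all genes were called lower and higher by edgeR. In neuron-like cells they summed to 4287 CPM in D0 and 983 to 1473 CPM in grafts, with 22 lower and 2 higher where 21.2% and 28.9% of all genes were so called. CYP51A1 and ACACA were the 2 higher genes in both classes. The progenitor-like class was also split into its parts. The summed level in D0 was 1.81 times the graft mean in radial glia clusters and 2.70 times in cycling clusters. Against the highest graft it was 1.24 and 2.11 times. Cycling markers summed to 2759 CPM in progenitor-like cells of D0 and 4002.5 to 5353 CPM in those of grafts. The part of this makeup in the result was not tested. In neuron-like cells STARD4 stood at 80.5 CPM in D0 and 0.647 to 3.73 CPM in grafts, a log2(Fold change) of -5.83 ± 0.27 (adjusted p = 2.7e-07, edgeR). Most clusters of these classes held cells of both D0 and grafts, in different proportions. A cluster found in D0 alone held 1066 of its 2145 neuron-like cells, and without it and 2 clusters of low depth or heat-shock genes, a choice made after seeing the data, D0 was still 2.93 times the graft mean against 3.49 times with them, with the same counts of genes called.

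Several properties moved with the contrast of grafts and D0. Choroid plexus markers summed to 6134 CPM in D0 and 3.001 to 6.82 CPM in grafts, and radial glia markers to 5315 CPM in D0 and 620 to 1753 CPM in grafts, while within neuron-like cells choroid plexus markers summed to 399 CPM in D0 and 1.87 to 5.90 CPM in grafts, and radial glia markers to 2303 CPM in D0 and 271 to 526 CPM in grafts. Within progenitor-like cells radial glia markers summed to 8091 CPM in D0 and 2170 to 4673 CPM in grafts, and choroid plexus markers to 1121 CPM in D0 and 1.11 to 25.3 CPM in grafts. Their part in the result was not tested. The D0 counts came from another release of Cell Ranger and another annotation than those of grafts, and D0 was dissociated with another enzyme, which cannot be told apart from transplantation. Grafts were also taken 2 or 4 months after D0 and had fewer UMIs per cell. Age and depth thus cannot be told apart from transplantation either. Fold changes of grafts against D0 rose with the span of the gene over all genes tested, with a median of -0.20 for 4505 genes of 20 to 50 kb, 1.597 for 1403 genes of 200 to 500 kb and 2.66 for 400 longer genes. Of the 26 genes, 23 lay below the median of genes of like span, by a median of 1.67 over all 26, and CYP51A1, PMVK and ACACA lay above it. ACACA, which spans 322 kb on chromosome 17, was 1.11 above its class of span, where 67.1% of genes had a lower fold change than it. CYP51A1, which spans 49.8 kb on chromosome 7, overlaps AKAP9 on the opposite strand.

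**Figure D2:**
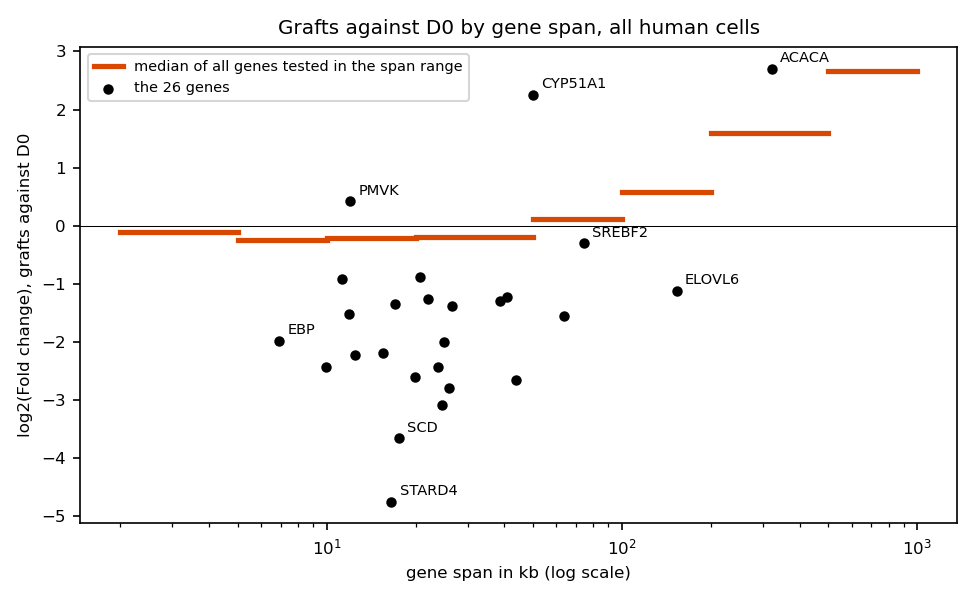
Log2(Fold change) of grafts against D0 in all human cells for each of the 26 genes (points, some with their names) against the span of the gene in kb on a log scale, with the median of all genes tested in 8 classes of span (horizontal bars). Medians run from -0.24 to 2.66, and 23 of the 26 points lie below the bar of their class, STARD4 farthest at -4.75.

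To follow the grafts in time, 4MPT was compared with 2MPT, with HIP and PFC as the libraries of a stage. Over all human cells the summed level averaged 1605 ± 140 CPM over the 2MPT libraries and 1221 ± 33.9 CPM over the 4MPT libraries (SD, n = 2), and the 2 stages did not overlap. Of the 26 genes, 9 had an unadjusted p under 0.05 (edgeR), all lower, as had 2614 of the 19074 genes tested in either direction. Only FDFT1 passed the test (-1.08 ± 0.23, adjusted p = 0.037, edgeR), where 0.550% of all genes were called lower. Next came INSIG1 at -1.05 ± 0.25 (adjusted p = 0.057, edgeR), SREBF2 at -0.96 ± 0.23 (adjusted p = 0.057, edgeR) and SREBF1 at -1.13 ± 0.30 (adjusted p = 0.087, edgeR). In all, 23 of the 26 fold changes were negative, with a median of -0.40 against -0.01 over all genes. Astrocyte markers summed to 218 and 369 CPM at 2MPT and to 1405 and 809 CPM at 4MPT in HIP and PFC, and the share of astrocyte-like cells was 4.36% and 7.02% at 2MPT and 10.3% and 6.62% at 4MPT in HIP and PFC.

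Within neuron-like cells more of the genes passed. Their summed level was 1453 CPM in HIP_2MPT, 1473 CPM in PFC_2MPT, 983 CPM in HIP_4MPT and 999 CPM in PFC_4MPT, so that the sites of a stage lay close together and the stages apart. Lower at 4MPT were 4 genes, INSIG1, FDFT1, STARD4 and SREBF2, where 0.383% of all genes were called lower by edgeR. At an unadjusted p under 0.05, 15 of the 26 were lower and 1 higher (edgeR). Over all 17735 genes tested, 2200 had such a p in either direction. The median log2(Fold change) of the 26 genes was -0.63, against -0.0020 over all genes, and 24 were negative. What the class held also moved with time. A cluster led by DLX6-AS1 and GAD2, genes of inhibitory neurons, held 12 and 21 cells at 2MPT and 247 and 1081 cells at 4MPT in HIP and PFC, and the low-depth cluster held 32 and 16 and then 57 and 834 cells. Neuron markers summed to 7684 and 6081 CPM at 2MPT and to 4523 and 3902 CPM at 4MPT in the class. The part of these shifts in the result was not tested, except that without the low-depth and heat-shock clusters and the cluster of D0, 3 genes passed in place of 4.

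INSIG1 stood at 32.9 and 38.3 CPM at 2MPT and at 7.03 and 10.8 CPM at 4MPT in neuron-like cells of HIP and PFC. The stages did not overlap, and the log2(Fold change) was -1.95 ± 0.29 (adjusted p = 0.0072, edgeR). FDFT1 went from 140 and 144 CPM to 44.3 and 52.2 CPM, again with no overlap (-1.51 ± 0.25, adjusted p = 0.014, edgeR). STARD4 rested on few molecules, 36 and 32 UMIs at 2MPT and 8 and 9 UMIs at 4MPT, or 3.73 and 2.85 CPM against 0.647 and 0.7997 CPM. Its log2(Fold change) was -2.12 ± 0.38 (adjusted p = 0.022, edgeR), with adjusted p = 0.091 (edgeR) in the fit on the human-mouse dual reference. That fit also left out D0, which has no dual counts. Over all human cells of each graft, STARD4 had the same UMIs in both references. SREBF2 went from 150 and 128 CPM to 47.1 and 64.7 CPM (-1.26 ± 0.26, adjusted p = 0.043, edgeR). Without HIP_4MPT, STARD4 and SREBF2 no longer passed (adjusted p = 0.064 and 0.149, edgeR), while INSIG1 and FDFT1 passed under all 13 alternatives run.

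The enzyme HMGCS1 came next in neuron-like cells, from 65.4 and 105 CPM to 34.2 and 35.5 CPM (-1.25 ± 0.29, adjusted p = 0.064, edgeR), and then SCD, from 36.5 and 21.7 CPM to 10.2 and 14.2 CPM (-1.20 ± 0.30, adjusted p = 0.092, edgeR). The positive fold changes were those of ACACA at 0.60 ± 0.26 (adjusted p = 0.37, edgeR) and PMVK at 0.00 ± 0.23. Summed by role, neuron-like cells held 199.97 and 177 CPM of regulators at 2MPT and 58.9 and 81.8 CPM at 4MPT in HIP and PFC. The steps from squalene to cholesterol went from 479 and 567 CPM to 299 and 332 CPM. Fatty acid enzymes stood at 264 and 249.2 CPM at 2MPT and 325 and 249.2 CPM at 4MPT, where the stages overlapped and ACACA alone gave 262 of the 325 CPM in HIP_4MPT.

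In progenitor-like cells none of the 26 genes passed the test between 4MPT and 2MPT, where 0.236% of all genes were called lower by edgeR. An unadjusted p under 0.05 was reached by 12 of the 26 with edgeR, and DESeq2 called none and gave 8. Over all 13541 genes tested, 973 reached it in either direction with edgeR and 552 with DESeq2. At a clustering resolution of 1.6 it was reached by 6 of the 26 and by 1127 of 13549 genes (edgeR). All 26 fold changes were negative, with a median of -0.70, but 3 were positive at a clustering resolution of 1.6, 2 without HIP_4MPT, 3 without PFC_4MPT, and 4 without PFC_2MPT, where the median was -0.36. Their summed level was 1558 CPM in HIP_2MPT, 2023 CPM in PFC_2MPT, 1155 CPM in HIP_4MPT and 1112 CPM in PFC_4MPT. Each 4MPT library was below both 2MPT libraries, which lay far apart. What this class held moved with time as well. Its oligodendrocyte lineage markers summed to 48.6 and 68.1 CPM at 2MPT and to 681 and 295 CPM at 4MPT in HIP and PFC. Its radial glia markers went from 2221 and 4673 CPM to 2850 and 2170 CPM. The part of these shifts in the result was not tested. STARD4 had the largest decrease, from 9.26 and 6.43 CPM to 1.19 and 2.23 CPM (3 and 4 UMIs at 4MPT; adjusted p = 0.19, edgeR). DHCR7 followed, from 9.26 and 14.1 CPM to 4.36 and 5.02 CPM (adjusted p = 0.36, edgeR).

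In astrocyte-like cells the stages could not be told apart by the summed level. It was 2436 CPM in HIP_2MPT, 3148 CPM in PFC_2MPT, 2581 CPM in HIP_4MPT and 2646 CPM in PFC_4MPT, so that the stages overlapped, against 4236 CPM in the few such cells of D0. None of the 26 genes passed the test, where 0.667% of all genes were called lower by edgeR. At an unadjusted p under 0.05, 2 were lower and 1 higher with edgeR (DESeq2 called none and gave 1 lower). Over all 11699 genes tested, 1667 had such a p in either direction with edgeR and 947 with DESeq2. Fold changes of the 26 were negative for 16 genes and positive for 10. HMGCS1 stood at 206 and 319 CPM at 2MPT and 322 and 268 CPM at 4MPT, and SC5D, a desaturase of late sterol intermediates, had the highest fold change, from 35.0 and 46.4 CPM to 68.8 and 70.4 CPM (0.78 ± 0.28, adjusted p = 0.22, edgeR). The lowest was that of SREBF1, from 37.1 and 37.8 CPM to 12.7 and 21.8 CPM (-1.11 ± 0.36, adjusted p = 0.17, edgeR).

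**Figure D3:**
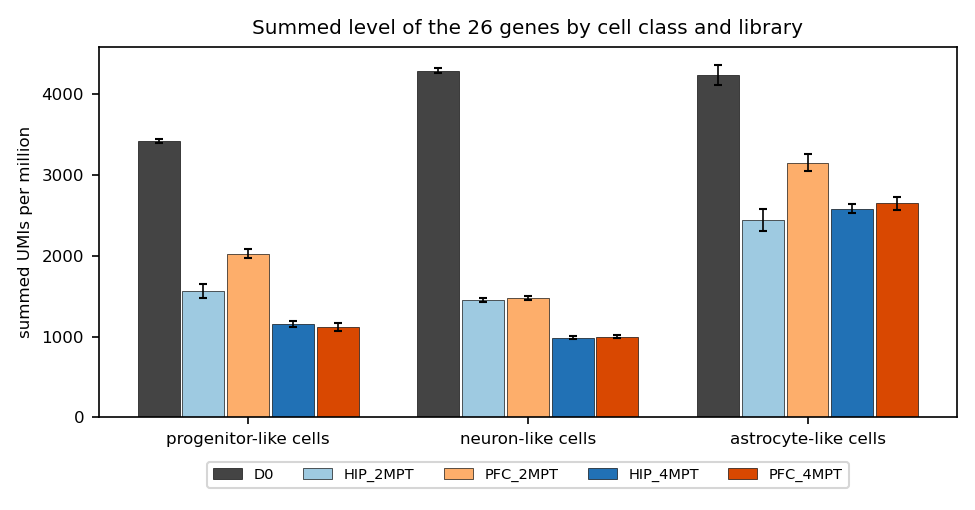
Summed CPM of the 26 genes in progenitor-like, neuron-like and astrocyte-like cells, with 1 bar per library and an exact 95% Poisson interval (line), which covers counting error only. In neuron-like cells bars stand at 4287 in D0, near 1463 at 2MPT and near 991 at 4MPT, and in astrocyte-like cells the 4 grafts lie between 2436 and 3148.

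Whether the change from 2MPT to 4MPT differed between astrocyte-like and neuron-like cells was tested over 8 sums, 2 classes in each of 4 grafts, with the library as a term, a test added after seeing the data. The difference passed for 7 of the 26 genes, all with a higher change in astrocyte-like cells, where 1.19% of all genes were called in that direction by edgeR. It was 1.52 ± 0.25 on the log2 scale for HMGCS1 (adjusted p = 0.00091, edgeR), 1.51 ± 0.30 for SCD (adjusted p = 0.0053, edgeR) and 1.46 ± 0.34 for INSIG1 (adjusted p = 0.019, edgeR). The others were SC5D, MSMO1, FDFT1 and STARD4, with differences of 0.98 to 2.28 and adjusted p of 0.015 to 0.047 (edgeR). SCD is given as an example. It stood at 36.5 and 21.7 CPM and then at 10.2 and 14.2 CPM in neuron-like cells, and at 117 and 145 CPM and then at 132 and 192 CPM in astrocyte-like cells of HIP and PFC. Not all 7 genes had this form, and for INSIG1 and FDFT1 the change was negative in both classes. The difference was positive for 21 of the 26 genes, with a median of 0.47 against 0.02 over all genes, and was lowest for ACACA (-0.70 ± 0.25, adjusted p = 0.16, edgeR). Astrocyte-like cells of HIP_2MPT held 1993.5 CPM of neuron markers, the most of the grafts, and the part of this in the difference was not tested. Without HIP_2MPT the difference was positive for 17 genes, with a median of 0.28 against 0.05 over all genes. Without PFC_2MPT it was positive for 22, with a median of 0.74. Without HIP_4MPT it passed for 2 genes, HMGCS1 and SCD, without HIP_2MPT for 5 and without PFC_2MPT for 10.

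The makeup of astrocyte-like cells moved with time as well. A cluster led by SPARCL1 held 9 and 1 of them at 2MPT and 184 and 136 at 4MPT in HIP and PFC, and astrocyte markers summed to 1413 and 2329 CPM at 2MPT and to 7342 and 5380 CPM at 4MPT in the whole class. In the main astrocyte-like cluster alone, HMGCS1 stood at 231 and 330 CPM at 2MPT and 347 and 273 CPM at 4MPT, and SCD at 125 and 146 CPM and then 129 and 181 CPM. The summed level of that cluster was 2541 and 3240 CPM at 2MPT and 2650.0 and 2654 CPM at 4MPT in HIP and PFC, close to that of all astrocyte-like cells.

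**Figure D4:**
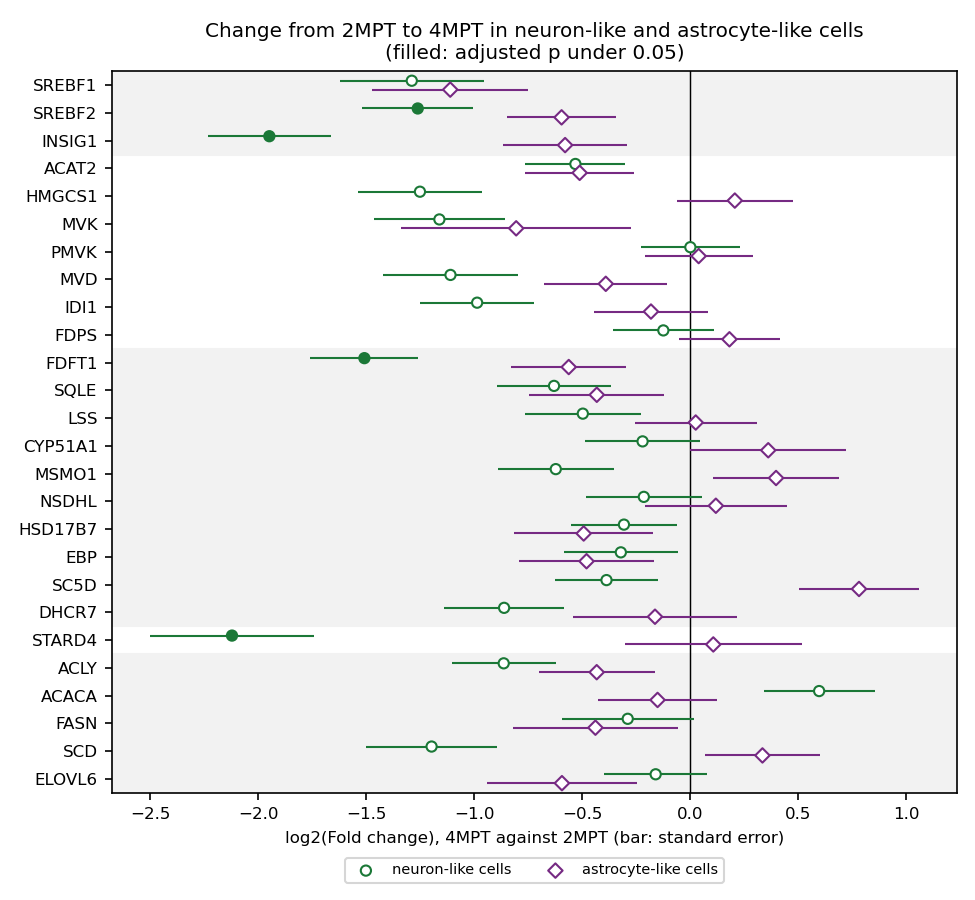
Log2(Fold change) of 4MPT against 2MPT for each of the 26 genes in neuron-like and astrocyte-like cells, with the standard error (bar) and filled symbols for an adjusted p under 0.05 (edgeR). Only INSIG1, FDFT1, STARD4 and SREBF2 in neuron-like cells are filled, from -2.12 to -1.26, and the astrocyte-like point lies to the right of the neuron-like point for 21 of the genes.

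Within each graft, the level in astrocyte-like cells was set against that in neuron-like cells of the same library, and these ratios were not tested. At least 2-fold higher in all 4 grafts were 9 of the 26 genes, SREBF1, INSIG1, HMGCS1, FDPS, LSS, DHCR7, STARD4, FASN and SCD, and none was 2-fold lower in all 4, while 7.90% of all genes past a mean of 5 CPM were so much higher. The median log2 ratio was 1.11 over the 26 genes and 0.05 over all. SCD had the highest mean ratio, 1.66 and 2.69 at 2MPT and 3.57 and 3.66 at 4MPT in HIP and PFC on the log2(CPM + 1) scale. STARD4 followed at 1.26, 2.65, 3.57 and 3.54 in the same order, and HMGCS1 at 1.64, 1.59, 3.20 and 2.88. For these 3 genes both 4MPT ratios were above both 2MPT ratios. This order was not particular to them and was found for most of the 26 genes. INSIG1, DHCR7, CYP51A1, IDI1, MSMO1, FDFT1, FDPS, LSS, NSDHL, SC5D, SREBF2, ACLY and MVD shared this order, while FASN, SREBF1 and the rest did not. Its share over all genes was not counted. Neuron markers summed to 1993.5 CPM in astrocyte-like cells of HIP_2MPT and to 531 to 612 CPM in those of the other grafts, and HIP_2MPT had the lowest ratio for SCD and STARD4. The part of these markers in the ratios was not tested. ACACA was the lowest, below neuron-like cells in every graft by 0.13 to 1.09, and EBP, ELOVL6 and MVK had ratios on both sides of 0.

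**Figure D5:**
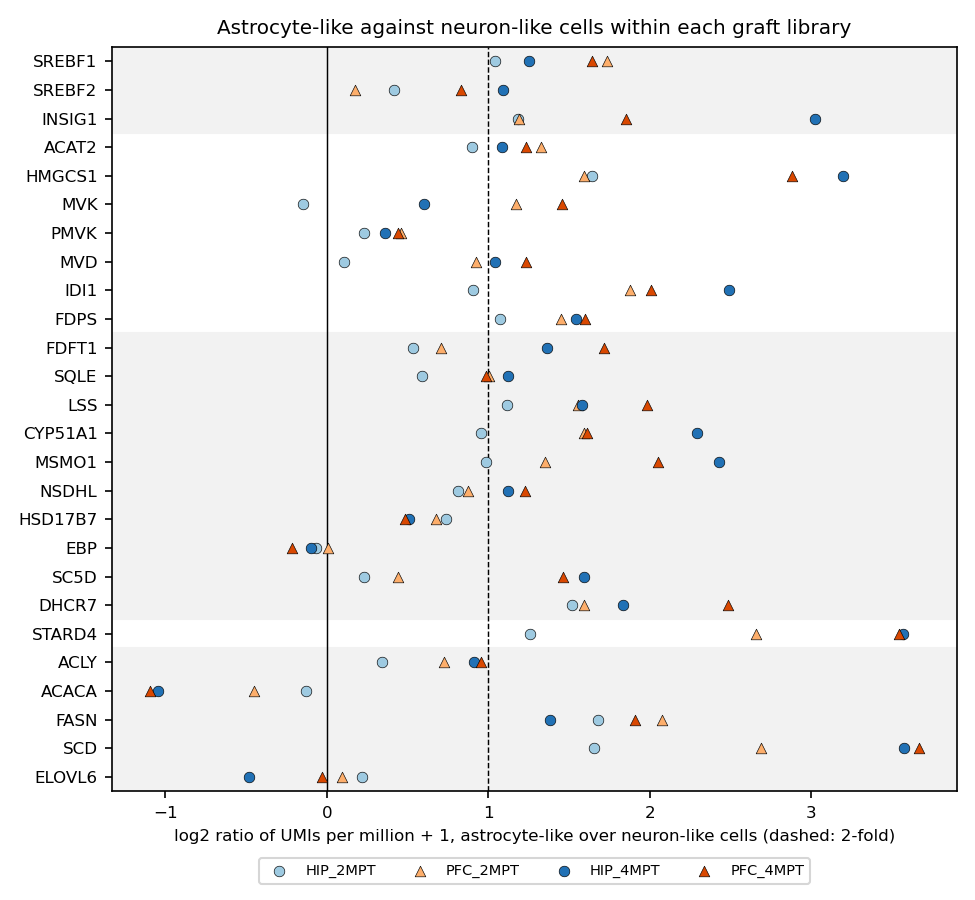
Log2 ratio of CPM + 1 in astrocyte-like over neuron-like cells of the same graft library, for each of the 26 genes, with circles for HIP, triangles for PFC, light symbols for 2MPT and dark symbols for 4MPT. The 9 genes with all 4 points right of the dashed 2-fold line reach 3.66 (SCD), and ACACA lies left of 0 in all 4.

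Progenitor-like cells were set against neuron-like cells in the same way, over all 5 libraries. Of the 22 genes past a mean of 5 CPM, none differed 2-fold in the same direction in all 5 libraries. With 6.78% of all genes doing so, that count is near the share over all genes and says little about the 22. Their median log2 ratio was 0.16, against -0.09 over all genes. For some genes D0 went against the grafts, as for ACAT2, at 0.71 to 1.36 in grafts and -0.43 in D0. For others it did not, as for SCD, at 0.41 to 1.16 in grafts and 0.22 in D0, and ACACA, negative in all 5.

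To ask whether the graft site mattered, PFC was compared with HIP over both stages, with stage as a term. This fit has 1 residual degree of freedom. None of the 26 genes passed in all human cells or in progenitor-like, neuron-like or astrocyte-like cells with edgeR or DESeq2, where 0.0876%, 0.00845%, 0.182% and 0.162% of all genes were called in either direction by edgeR. In astrocyte-like cells 432 of 11699 genes had an unadjusted p under 0.05 (edgeR). Of the 26 genes it was reached there by DHCR7 alone (0.75 ± 0.37, PFC above HIP), and in the other cells by none. Fold changes ran from -0.18 ± 0.31 for ACACA to 0.51 ± 0.39 for DHCR7 in all human cells and from -0.27 ± 0.33 for LSS to 0.45 ± 0.33 for INSIG1 in neuron-like cells. In astrocyte-like cells they ran from -0.42 ± 0.31 for ACACA to 1.10 ± 0.56 for MVK. They were positive, PFC above HIP, for 21 of the 26 genes in all human cells with a median of 0.15, for 20 in progenitor-like cells (0.24), for 17 in neuron-like cells (0.13) and for 22 in astrocyte-like cells (0.29), while medians over all genes lay within 0.01 of 0. Standard errors were 0.30 to 0.48 on the log2 scale in all human cells, and a p that misses the threshold does not show that sites act alike. The makeup of neuron-like cells also differed by site. At 4MPT the cluster led by DLX6-AS1 and GAD2 held 247 cells in HIP and 1081 in PFC, and the low-depth cluster 57 and 834. At 2MPT both clusters held few cells at either site. The part of this makeup in the comparison of sites was not tested.

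Host RNA was checked in the counts against the dual reference. Human UMIs of the 26 genes differed by 0.0589% to 0.181% per graft library between the references, and mouse genes of the same names (that for SCD was not counted) gave 57 to 434 UMIs in human cells of a library. Of the 26 genes, 14 overlap a gene on the opposite strand and 5 have named pseudogenes, IDI1, FDPS, CYP51A1, HSD17B7 and SCD, whose reads the counting could split.

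Other genes of the pathway were counted from 2 lists. Of 22 genes of SREBP processing and the remaining synthesis, 15 were lower and 3 higher in grafts than in D0 over all human cells, with a median of -0.88, and none passed in either direction between 4MPT and 2MPT (edgeR). Over all genes, 24.1% were lower and 29.2% higher in grafts. Of 15 genes of sterol uptake, transport and export, 5 were lower and 4 higher in grafts than in D0. These counts are near the shares over all genes and say little about this list. Between the stages, 1 of the 15 was higher at 4MPT. That gene was APOE, the apolipoprotein that carries cholesterol from astrocytes, at 63.0 CPM in D0, 8.95 and 13.6 CPM at 2MPT and 666 and 307 CPM at 4MPT in HIP and PFC (5.46 ± 0.41, adjusted p = 0.00025, edgeR). In astrocyte-like cells it went from 128 and 157 CPM to 4527 and 2897 CPM (4.75 ± 0.32, adjusted p = 0.00014, edgeR). The summed level of the 26 synthesis genes in the same cells overlapped between the stages. APOE was also called higher at 4MPT in neuron-like cells and in progenitor-like cells (edgeR). Its level in astrocyte-like over neuron-like cells at 4MPT was 7.05 in HIP and 6.59 in PFC on the log2(CPM + 1) scale. Whether APOE RNA from other cells reached neuron-like and progenitor-like cells was not tested. In progenitor-like cells APOE did not pass with DESeq2 or with human genes of the dual reference, a fit that also left out D0. Over all human cells of a graft, human APOE UMIs differed by at most 0.0783% between the references. The fold change of APOE over all human cells ran from 4.86 to 5.89 over 11 alternatives, human genes of the dual reference among them. In that reference mouse Apoe gave 779 to 7880 UMIs in human cells of a graft library.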

How the data were processed

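Cells were captured with 10x Genomics 3′ chemistry (V3), and the authors counted UMIs with Cell Ranger (3.1 per the processing notes, 3.1.0 and 5.0.0 per the file headers of D0 and grafts). The deposited values are raw UMI counts per gene and barcode, against a human reference for all libraries and a human-mouse dual reference for grafts. The study's methods name GRCh38 for human reads, while the gene annotation release and whether intronic reads were counted are not given in the sources used here. The 32732 genes in both annotations were used.

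Barcodes were kept that had more than 500 genes and more than 500 UMIs, a complexity (log10 of genes divided by that of UMIs) above 0.8, a mitochondrial share under 0.15 and, in grafts, a human share of UMIs over 0.8. Doublets were not called or removed. Cells were normalized with sctransform 0.4.2 and clustered in Seurat 5.3.0 (2500 variable genes without 63 pathway genes, 40 principal components, resolution 0.8), and clusters were named from fixed marker lists. UMIs were summed per library and class and tested with edgeR 4.0.16 (quasi-likelihood, TMM factors, Benjamini-Hochberg adjustment over all genes tested), with DESeq2 1.42.0 as an alternative. Scripts were tested on simulated data with 200 genes changed. Intervals are exact 95% Poisson intervals and cover counting error only. At the depths of 11192237 to 55892222 UMIs, 5 UMIs (STARD4 in astrocyte-like cells of HIP_2MPT) was among the thinnest values. Gene positions are those of GENCODE 44 on GRCh38.

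Genes named are the 26 members, with full statistics for the leading ones that passed a test (against D0, where 24 of 26 passed, others are given by range) and the rest by range and count, and other pathway genes that passed between stages or sites over all human cells. Members given in full though they missed a threshold were chosen after their values were seen. Some pathway genes are not reported here. The members and lists were chosen with earlier results of these data known. Alternatives were another test, filter, UMI minimum, mitochondrial limit, human share, resolution and reference, and leaving out each graft library. Fits on the dual reference or with graft site as a block also left out D0. The test of class differences, neuron-like cells without 3 clusters and the main astrocyte-like cluster alone were added after seeing the data.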

Additional observations from a re-analysis of the deposited data

Results flagged for a closer look

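The change from 2MPT to 4MPT differed between astrocyte-like and neuron-like cells for 7 of the 26 genes (edgeR, 8 sums with the library as a term, a test added after seeing the data), and in each the change was higher in astrocyte-like cells. On the log2 scale the difference was 1.52 ± 0.25 for HMGCS1, 1.51 ± 0.30 for SCD, 1.12 ± 0.25 for MSMO1, 1.46 ± 0.34 for INSIG1, 1.25 ± 0.30 for SC5D, 0.98 ± 0.24 for FDFT1 and 2.28 ± 0.61 for STARD4. The separate changes in astrocyte-like and neuron-like cells were 0.21 and -1.25 for HMGCS1, 0.34 and -1.20 for SCD, 0.40 and -0.62 for MSMO1, -0.58 and -1.95 for INSIG1, 0.78 and -0.39 for SC5D, -0.56 and -1.51 for FDFT1, and 0.11 and -2.12 for STARD4. For INSIG1 and FDFT1 both changes were thus negative, and those in astrocyte-like cells did not pass the test on their own.

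HMGCS1 and SCD passed in all 6 alternatives run, which include leaving out each graft library. Without HIP_4MPT the other 5 did not pass, MSMO1 at 0.89 (adjusted p = 0.36, edgeR), SC5D at 1.13 (adjusted p = 0.18, edgeR) and INSIG1 at 0.75 (adjusted p = 0.65, edgeR) among them. FDFT1 and STARD4 also failed without HIP_2MPT or PFC_4MPT. STARD4 rests on 5 to 54 UMIs per graft in astrocyte-like cells and 8 to 36 UMIs in neuron-like cells.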

How the results depend on the processing

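No gene that passed a test changed direction under the alternatives run, while genes that did not pass did. Of the 26 genes, 1 passed between 4MPT and 2MPT over all human cells, against 4 with DESeq2, 5 without a filter on low counts, 2 with a mitochondrial share under 0.10 and 0 to 4 when a library was left out (0 without HIP_4MPT or PFC_4MPT, 2 without HIP_2MPT and 4 without PFC_2MPT). In progenitor-like cells 0 passed, against 1 without the filter and 0 to 1 when a library was left out. In neuron-like cells 4 passed, against 7 with DESeq2, 10 without the filter and 2 to 8 when a library was left out. In astrocyte-like cells 0 passed, against 0 to 1 when a library was left out (1 without PFC_2MPT). The class difference passed for 7 genes, against 2 to 10. With graft site as a replicate block, since HIP and PFC name both stages, 1, 0, 6 and 0 genes passed in all, progenitor-like, neuron-like and astrocyte-like cells. Calls over all genes moved as well. In neuron-like cells 129 of 17735 genes were lower with DESeq2, 340 of 26596 without the filter and 164 of 15963 with the block. In all human cells these were 197 of 19074, 379 of 27512 and 168 of 17121.

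FDFT1 over all human cells did not pass without HIP_4MPT (adjusted p = 0.22, edgeR). In neuron-like cells SREBF2 did not pass over 1000 UMIs per cell (adjusted p = 0.058, edgeR) or without 3 clusters (adjusted p = 0.055, edgeR). Against D0, MVD over all human cells did not pass without HIP_4MPT (adjusted p = 0.064, edgeR) or PFC_4MPT (adjusted p = 0.053, edgeR), and DESeq2 gave 15 lower genes in progenitor-like cells against 20. Over all genes, 457 were called between 4MPT and 2MPT in all human cells (32 to 1508 over the alternatives). Between the stages, positive fold changes went from 3 of 26 to 8 without PFC_2MPT in all human cells, and in astrocyte-like cells the median of the 26 went from -0.29 to 0.01 without that library. The cause of these shifts was not tested. PFC against HIP could not be fitted with stage as a term when a library was left out. Depth limits the low genes most, STARD4 in particular.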

Other observations

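A cluster that received no name, led by OLIG1, EGFR and OLIG2, held 866 cells in HIP_4MPT and 645 in PFC_4MPT against 27 and 65 at 2MPT. The 26 genes summed there to 1090.1 and 1151 CPM at 4MPT, below the 2581 and 2646 CPM of astrocyte-like cells in the same libraries. At 2MPT, with few cells, the cluster averaged 2127 ± 585 CPM, against 2792 ± 504 CPM in astrocyte-like cells (SD, n = 2 each). The parts of the neuron-like class were also summed apart. Between the stages, intermediate progenitor neurons went from 1637 and 1823 CPM to 1034 and 903 CPM in HIP and PFC. The clusters of neurons proper went from 1391 and 1359 CPM to 967 and 1024 CPM. These values were not tested.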
